A study of Mus musculus with 2 samples.

Results

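The Hox genes are the transcription factor genes that carry positional identity along the body axis. All gene rows whose symbol was Hoxa, Hoxb, Hoxc or Hoxd followed by a number were taken, which gave 39 of 32285 genes, namely 11 Hoxa, 10 Hoxb, 9 Hoxc and 9 Hoxd genes. They were measured in a pooled culture of mouse aortic vascular smooth muscle cells (VSMCs), the contractile cells of the arterial wall, by droplet single-cell RNA sequencing of transcript 3′ ends. A unique molecular identifier (UMI) counts each captured transcript once.

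Primary VSMCs were bought from commercial suppliers, who isolated them from aortas of C57BL/6 mice, and were cultured at low passage. Young cells came from mice of 12 weeks and old cells from mice of 58 to 78 weeks. A second culture of young cells received angiotensin II (AngII), a hormone that raises blood pressure, at 100 nM for 48 h, and a second culture of old cells was transfected with 20 nM siRNA against the mechanosensitive channel Piezo1 (siPiezo1). The dose is that of the protocol, and the results text of the study gives a slightly higher one. A pool of non-targeting siRNA is also named; the study describes immunostained old cells as having received it, and whether the tagged old culture did is not stated. Each of the 4 cultures was stained with an antibody carrying its own DNA tag (hashtag) before mixing. The numbers beside the cells in the study's overview scheme were taken as tag numbers, which the sources do not state outright, so that tag 1 was read as young, tag 2 as old, tag 3 as young + AngII and tag 4 as old + siPiezo1. Each tag was taken as 1 culture, so no test between tags was made, and all intervals below are 95% intervals that cover counting error only.

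The library held 13045 cells with a median of 7915 UMIs. Of these, 3144 carried only tag 1, 497 only tag 2, 1500 only tag 3 and 1529 only tag 4, and the summed depth per tag ranged from 5577355 UMIs in tag 2 to 24120561 in tag 1. No tag passed its cutoff in 40.7% of the cells, and more than 1 tag did in 8.19%. The median own-tag count was 364, 76, 113 and 67 UMIs in tags 1 to 4, at cutoffs of 36, 52, 61 and 41. With the own tag at least 3 times the next, 2649, 179, 1334 and 482 cells stayed. Cells without a tag made up 2.52% to 73.6% of the cell clusters described below. In clusters 2, 4 and 6, which held most tag 2 and tag 4 cells, they made up 68.2%, 57.4% and 61.9%. How tags 2 and 4 would change with these untagged cells was not tested. Median depth per cell was 6816.5 UMIs in tag 1 against 9453.5 to 10663 in the other tags. Piezo1 was at 89.6 UMIs per 1000000 (CPM) in tag 2 (82.0 to 97.9) and 86.9 in tag 4 (82.4 to 91.5). It was at 71.6 in tag 1 and 108 in tag 3. A Piezo1 level lower in tag 4 than in tag 2 beyond counting error was thus not seen, and the siPiezo1 label was not borne out by it. The study reports a reduced Piezo1 level after siPiezo1 in its single-cell data. The summed CPM of 9 smooth muscle markers was 909, 1720, 1088 and 691 in tags 1 to 4, that of 6 fibroblast markers 1065, 764, 1111 and 1011, and that of 8 division markers 838, 812, 547 and 906. Of the smooth muscle markers, Acta2 was at 378, 568, 294 and 174 CPM, while Myh11, which marks mature contractile cells, was at 5.27, 7.89, 1.94 and 3.60 CPM. The study describes its young single cells by abundant ACTA2, MYL9 and TAGLN and reports less ACTA2 in old cells by qRT-PCR. Tag 2, read as old, had more Acta2 than tag 1, so this reading was not borne out by it. Acta2 was lowest in tag 4. Of the 9 markers, 3 were at least 2-fold higher and 0 lower in tag 2 than in tag 1. Among genes with at least 50 UMIs, 7.12% and 9.28% were. In tag 4 against tag 3, 0 were higher and 1 lower, beside 8.43% and 6.55%. The summed endothelial, macrophage and epithelial or mesothelial markers lay between 3.75 and 27.3 CPM in every tag, with Ptprc at 0 in tags 2 and 4, Krt8 at 0 in the same tags, Epcam at 0 in tag 2 and Vwf at 0 in tag 4. The part of these marker sums and of depth in the Hox values was not tested.

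Hox proteins bind DNA through a homeodomain, usually together with Pbx and Meis partners. Their genes lie in 4 clusters, and genes at the same place in different clusters form paralogue groups. Low-numbered groups sit at the 3′ end of a cluster and are used from the hindbrain and neck downwards, whereas higher-numbered groups begin progressively further towards the tail. Smooth muscle and fibroblasts from different body regions are known to hold different Hox combinations, and to keep much of them in culture. By identifier in GENCODE vM21 (GRCm38), HoxA lay at chr6:52155590-52260880, HoxB at chr11:96194316-96368256, HoxC at chr15:102921103-103036852 and HoxD at chr2:74668310-74765142. No source used here names the build of the deposited counts.

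Promoter sequence was available in the RefSeq table (GRCm38.p6) for 22 of the 39 genes. Shown here are the 250 bases before the start of Hoxa5, the Hox gene with the highest CPM (minus strand, chr6:52204588-52204837), and of Hoxb4 (plus strand, chr11:96318017-96318266), both of which were on in every tag. The third line holds 26 bases that lie before the RefSeq start of Hoxc4 (plus strand, chr15:103034239-103034264), within the annotated untranslated region of a longer Hoxc4 transcript, as a gene whose level differed between tags. Capitals mark TGACCT, the reverse complement of the nuclear receptor half-site AGGTCA, which retinoic acid receptors bind among others. It began 81 bases before the start of Hoxb4 and 146 bases before that of Hoxc4, and was not found in the Hoxa5 window.
Hoxa5: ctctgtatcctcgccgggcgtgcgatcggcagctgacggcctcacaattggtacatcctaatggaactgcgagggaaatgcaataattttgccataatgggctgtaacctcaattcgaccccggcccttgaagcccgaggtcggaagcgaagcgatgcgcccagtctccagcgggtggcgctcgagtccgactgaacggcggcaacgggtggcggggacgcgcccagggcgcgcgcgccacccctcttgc
Hoxb4: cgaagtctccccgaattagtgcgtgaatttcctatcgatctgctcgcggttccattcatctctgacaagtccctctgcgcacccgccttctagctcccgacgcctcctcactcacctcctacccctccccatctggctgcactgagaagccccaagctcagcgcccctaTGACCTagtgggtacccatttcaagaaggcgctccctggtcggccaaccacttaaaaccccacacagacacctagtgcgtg
Hoxc4: cgctgccctgTGACCTacacagactg
Read on both strands, AGGTCA was in 6 of the 24 Hox promoter entries and in 14.02% of all 32851 entries. Besides Hoxb4 and Hoxc4, the Hox entries with it were Hoxd3, Hoxd4, Hoxd8 and Hoxd10, each below 0.5 CPM over all cells. The Pbx-Hox motif TGATNNAT was in 4 of the 24 against 7.68% of all, the Meis motif TGACAG in 2 against 15.9%, and TATAAA in 4 against 12.4%. A match describes the letters only.

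A Hox gene was called on at 5 CPM or more, low from 0.5 to under 5 CPM and off below that. Over all cells, 16 genes were on, 6 low (among them Hoxa6, Hoxa9, Hoxc4, Hoxc5 and Hoxc13) and 17 off. The genes that were on belonged to paralogue groups 2 to 9 of HoxA, HoxB and HoxC, and no HoxD gene was on. Of the genes that were off, Hoxa10, Hoxa11, Hoxb1, Hoxb13, Hoxc10, Hoxc12, Hoxd3, Hoxd4, Hoxd8, Hoxd9, Hoxd10 and Hoxd11 had at least 1 UMI. Hoxa13, Hoxc11, Hoxd1, Hoxd12 and Hoxd13 had 0 UMIs in 115033686, which allows up to 0.0261 CPM each. The 9 HoxD genes together gave 1.41, 0.717, 1.88 and 0.869 CPM in tags 1 to 4.

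By tag, 17 genes were on in tag 1, 13 in tag 2, 16 in tag 3 and 10 in tag 4. The 10 genes on in tag 4 were on in every tag, namely Hoxa3, Hoxa4, Hoxa5, Hoxa7, Hoxb2, Hoxb3, Hoxb4, Hoxb5, Hoxb7 and Hoxb8. Hoxa2, Hoxb6 and Hoxb9 were also on in tag 2, just above 5 CPM on 30, 29 and 30 UMIs. The gap between the counts of tags 2 and 4 thus rests on calls near the limit. Hoxc4, Hoxc6, Hoxc8 and Hoxc9 were on in tags 1 and 3 alone. Hoxa2 was below 5 CPM in tag 3 (3.68) and in tag 4 (4.53).

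UMIs mark transcript 3′ ends and were not divided by gene length. On this scale Hoxa5, known for its part in lung and axial skeleton development, was highest at 109 CPM over all cells. Hoxb3 followed at 38.1 CPM, then Hoxb4 at 32.0 and Hoxa3 at 30.7, of which the last pair had overlapping intervals. Hoxb7 was at 26.8, Hoxb2 at 24.9 and Hoxa7 at 22.5 CPM. Intervals also overlapped between Hoxb5 (15.4) and Hoxb8 (15.0), between Hoxc6 (10.8) and Hoxc8 (10.5), and between Hoxa2 (5.57) and Hoxc9 (5.29). Hoxa3 overlaps Hoxa4, Hoxa5 and Hoxa6 in the annotation, Hoxc5 overlaps Hoxc6, Hoxc8, Hoxc9 and Hoxc10, and Hoxd3 overlaps Hoxd4, so counts of these 11 genes are uncertain where exons coincide.

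**Figure D1:**
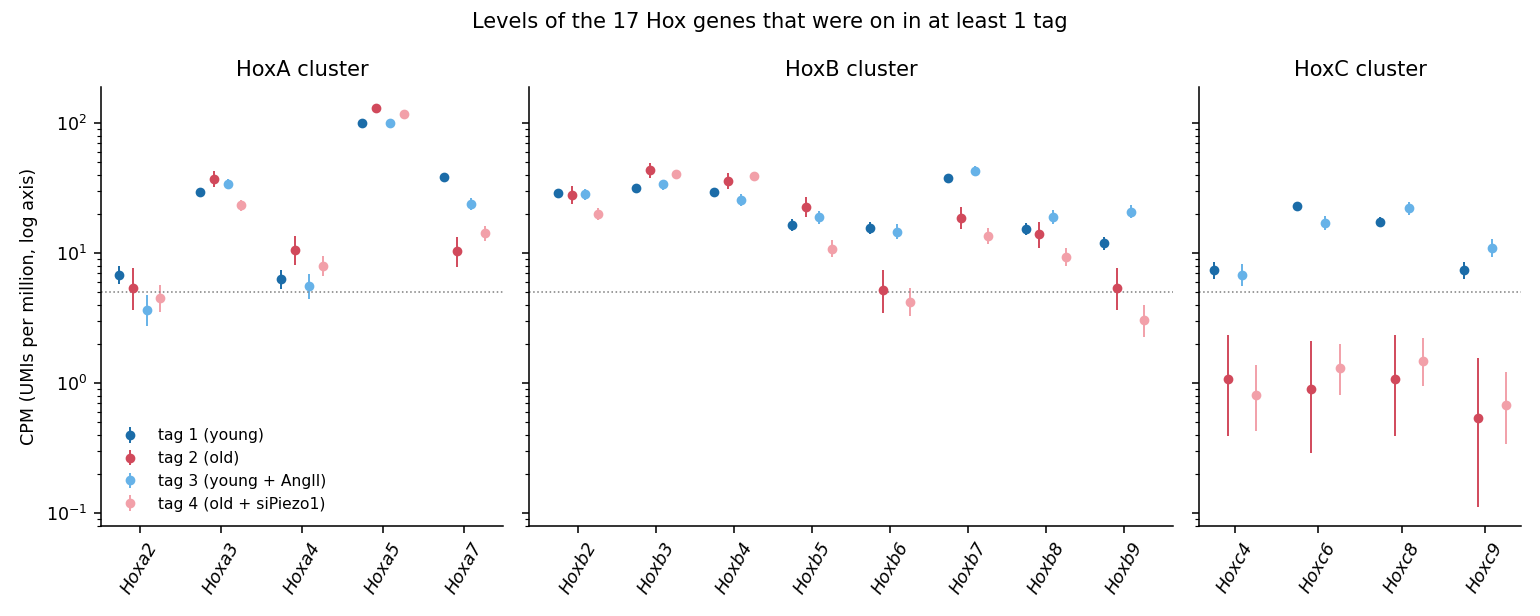
CPM (log axis) of the 17 Hox genes that were on in at least 1 tag, with points for tags 1 to 4 (group names by the overview scheme) and bars for exact Poisson 95% intervals. The dotted line marks 5 CPM; Hoxc4, Hoxc6, Hoxc8 and Hoxc9 lie above it in tags 1 and 3 and below 2 CPM in tags 2 and 4.

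The HoxC genes showed the widest differences between tags. Hoxc6, used at thoracic levels of the axis, was at 22.9 CPM in tag 1 (553 UMIs), 0.896 in tag 2 (5 UMIs), 17.1 in tag 3 (255 UMIs) and 1.30 in tag 4 (21 UMIs). Hoxc8, which patterns the thoracic skeleton and brachial motor neurons, was at 17.4, 1.08, 22.2 and 1.49 CPM in tags 1 to 4. Both genes were high in tags 1 and 3 and low in tags 2 and 4, and the intervals of the high and low tags did not overlap. Hoxc9, a thoracic identity gene of motor neurons, was at 7.42, 0.538, 11.05 and 0.683 CPM. Hoxc4 was at 7.42, 1.08, 6.83 and 0.807 CPM and Hoxc5 at 3.19, 0.538, 4.22 and 0.435 CPM, so for these genes too tags 1 and 3 lay above tags 2 and 4. Hoxc13, known for its part in hair and nail formation, was at 0.954 CPM in tag 1, 0 in tag 2, 3.42 in tag 3 and 0.559 in tag 4.

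Summed over Hoxc4 to Hoxc9, the level was 58.4 CPM in tag 1, 4.12 in tag 2, 61.3 in tag 3 and 4.72 in tag 4. Tag 2 was 14.2-fold lower than tag 1 (9.40 to 22.4), and tag 4 was 13-fold lower than tag 3 (10.3 to 16.7). These comparisons share no tag, but they share the library, and whether the cultures of an age came from separate donors is not stated. Much of the low level lay in few cells: in tag 4, 1332 of 1529 cells, those in the clusters described below, held 20 of the 76 UMIs, and in tag 2, 425 of 497 cells held 9 of the 23. Over the cells in the clusters that held at least 100 cells of their tag, tag 2 was 31.0-fold lower than tag 1 (16.3 to 68.0) and tag 4 was 44.7-fold lower than tag 3 (28.8 to 73.6). The clusters were chosen per tag, after the data were seen, and tags 1 and 3 had none in common with tags 2 and 4. Tag and cluster therefore cannot be told apart in these larger folds. Over the remaining cells, tag 2 was 2.88-fold lower (1.63 to 5.47), and the ratio of tag 4 to tag 3 was 0.785 (0.524 to 1.18). Barcodes of 1 to 100 UMIs, which hold free RNA, had 23.4 CPM of the same genes, above the levels in tags 2 and 4, so how much of the few UMIs there came from the cells was not tested. After thinning each cell to 5000 UMIs, 22.6% of tag 1 cells and 23.2% of tag 3 cells had a Hoxc4 to Hoxc9 UMI, against 2.31% in tag 2 and 1.34% in tag 4.

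The HoxA and HoxB genes of groups 6 to 9 were also lower in tags 2 and 4, by less in their sum. Hoxa7 was at 38.8 CPM in tag 1, 10.4 in tag 2, 24.0 in tag 3 and 14.3 in tag 4. Hoxb7 was at 37.8, 18.8, 43.2 and 13.6 CPM, and Hoxb6 at 15.6, 5.20, 14.7 and 4.22 CPM. Each of these was lower in both tags 2 and 4 than in both tags 1 and 3, without overlap of the intervals. Hoxb9, which patterns the first ribs, was at 11.9, 5.38, 20.9 and 3.04 CPM, and Hoxa9, a gene of blood cell formation, was low in tags 1 and 3 (2.28 and 2.81 CPM) and rested on 1 UMI in tag 2 and 10 in tag 4. Hoxb8 was the exception in tag 2, at 15.3, 13.98, 19.1 and 9.38 CPM. Summed, Hoxa and Hoxb groups 6 to 9 were at 123, 54.1, 126 and 45.4 CPM, which made tag 2 lower than tag 1 by 2.27-fold (2.02 to 2.57) and tag 4 lower than tag 3 by 2.76-fold (2.54 to 3.01).

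Groups 1 to 5 of HoxA and HoxB were not lower in tag 2, at a sum of 253, 316, 254 and 267 CPM. The ratio was 1.25 (1.19 to 1.32) for tag 2 against tag 1 and 1.05 (1.01 to 1.10) for tag 4 against tag 3. Hoxa5 was at 101 CPM in tag 1, 131 in tag 2, 99.8 in tag 3 and 119 in tag 4. Hoxb3, a hindbrain and neck gene, was at 31.8, 43.6, 33.8 and 40.9 CPM, and Hoxb4, known to expand blood stem cells when overexpressed, at 29.5, 36.04, 25.7 and 39.2 CPM. Tags 2 and 4 had the higher value of each of these 3 genes, although for Hoxb4 the intervals of tags 1 and 2 overlapped. Hoxa4, a cervical vertebra gene, was at 6.30, 10.6, 5.56 and 7.95 CPM. Hoxa3, needed for thymus and parathyroid formation, was at 29.4, 37.5, 34.2 and 23.3 CPM, and Hoxb2 at 29.1, 28.2, 28.5 and 20.0 CPM, so tag 4 was lowest for both. Hoxb5, which helps to place the shoulder girdle, was at 16.5, 22.8, 18.9 and 10.9 CPM. Hoxa2, which sets the identity of the second pharyngeal arch, was at 6.84, 5.38, 3.68 and 4.53 CPM.

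As a share of all Hox UMIs, groups 6 to 9 made up 39.2% in tag 1 and 39.6% in tag 3, and 15.2% in tag 2 and 15.5% in tag 4. Group 5 alone made up 27.6% and 27.5% in tags 1 and 3 and 40.97% and 40.8% in tags 2 and 4. The level of all 39 genes was 437 CPM (429 to 446), 375 (360 to 392), 447 (436 to 458) and 319 (310 to 328) in tags 1 to 4. Within the clusters, HoxA summed to 189, 197, 175 and 172 CPM and HoxB to 188, 174, 205 and 141 CPM, while HoxC summed to 59.8, 4.12, 65.4 and 5.46 CPM.

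Ratios were read for genes with at least 50 UMIs over all cells, which held 23 Hox genes and 15179 genes in all. Between tag 2 and tag 1, 12 of the 23 Hox genes were at least 2-fold lower and 0 were at least 2-fold higher, where 9.28% and 7.12% of all genes were. The 12 were Hoxa6, Hoxa7, Hoxa9, Hoxb6, Hoxb7, Hoxb9, Hoxc4, Hoxc5, Hoxc6, Hoxc8, Hoxc9 and Hoxd8. The ratio was 0.0391 (0.0126 to 0.0918) for Hoxc6, 0.0618 (0.0225 to 0.136) for Hoxc8, 0.268 (0.202 to 0.350) for Hoxa7 and 0.498 (0.403 to 0.610) for Hoxb7, the nearest to the limit. Hoxa6, Hoxa9 and Hoxd8 rested on 1 UMI each in tag 2, and the interval of Hoxd8 (0.00843 to 2.44) included 1. Hoxc13, with 0 UMIs in tag 2 against 23 in tag 1, had a ratio of at most 0.564, computed against 3 UMIs in tag 2.

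Between tag 4 and tag 3, 14 of the 23 were at least 2-fold lower and 0 at least 2-fold higher, against 6.55% and 8.43% of all genes. Hoxa6, Hoxa9, Hoxb6, Hoxb7, Hoxb9, Hoxc4, Hoxc5, Hoxc6, Hoxc8, Hoxc9 and Hoxd8 were among them as before, and Hoxb8 and Hoxc13 were also past 2-fold here. The ratio was 0.0618 (0.0303 to 0.114) for Hoxc9, 0.0764 (0.0465 to 0.119) for Hoxc6, 0.146 (0.105 to 0.197) for Hoxb9 and 0.491 (0.401 to 0.600) for Hoxb8. Hoxa7 was not past 2-fold here, at 0.596 (0.503 to 0.705). The median log2 ratio of the 23 genes was -1 between tags 2 and 1 and -1.30 between tags 4 and 3, beside 0.05 and 0.03 for all genes. Among genes with at least 500 UMIs, 8 of 17 Hox genes were at least 2-fold lower in each of these comparisons, beside 5.44% and 4.28% of 10557 genes.

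**Figure D2:**
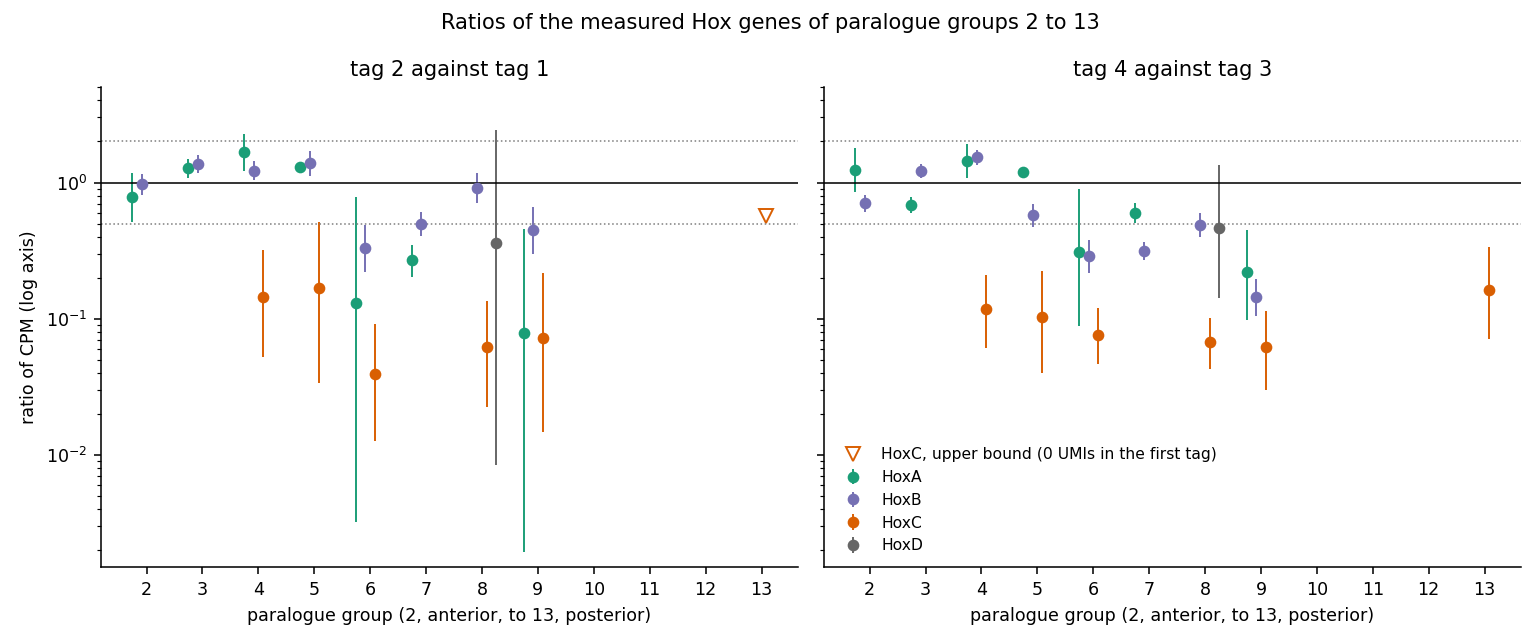
Ratio of CPM (log axis) of the Hox genes of paralogue groups 2 to 13 with at least 50 UMIs, for tag 2 against tag 1 and tag 4 against tag 3. Points are coloured by cluster, bars are exact binomial 95% intervals, dotted lines mark 2-fold either way and the open triangle is an upper bound; HoxC genes lie below 0.2 in both panels where they have a point, whereas HoxA and HoxB genes of groups 2 to 5 lie between 0.5 and 2.

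The AngII comparison, tag 3 against tag 1, held fewer Hox genes past 2-fold. Hoxc13 alone was at least 2-fold higher, at a ratio of 3.58 (2.15 to 6.14; 51 against 23 UMIs), where 3.68% of all genes were higher, and 0 of the 23 were at least 2-fold lower, where 7.59% were. Hoxb9 was at a ratio of 1.75 (1.49 to 2.06), Hoxc9 at 1.49 (1.20 to 1.85), Hoxa7 at 0.618 (0.545 to 0.699) and Hoxa2 at 0.538 (0.389 to 0.735). The Hoxc4 to Hoxc9 sum was at 1.05 (0.966 to 1.14). This comparison shares tag 1 with the comparison of tags 2 and 1, and tag 3 with that of tags 4 and 3.

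Between the cells labelled siPiezo1 (tag 4) and tag 2, Hoxb5 alone was at least 2-fold lower, at 0.477 (0.378 to 0.604). That is 4.35% of the 23 Hox genes, near the 3.13% of all genes. Hoxb5 was highest in cluster 6, described below, which held 160 of the 497 tag 2 cells and 235 of the 1529 tag 4 cells. The part of this cell mix in the ratio was not tested. Hoxa9 (10 against 1 UMIs) and Hoxd8 (6 against 1 UMIs) were past 2-fold on the higher side, where 3.37% of all genes were. Their intervals ran from 0.493 to 150 and from 0.252 to 95.6. Hoxa3 was at 0.623 (0.525 to 0.741), Hoxb2 at 0.710 (0.585 to 0.865) and Hoxa7 at 1.37 (1.03 to 1.86). The Hoxc4 to Hoxc9 sum was at 1.14 (0.710 to 1.91), an interval that covers both a lower and a higher level. Tags 2 and 4 are also the tags of the comparisons above.

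The transcripts of the sex chromosomes moved with the same split of tags. Xist, the RNA of the inactive X chromosome, was at 113, 636, 118 and 768 CPM in tags 1 to 4, and Ddx3y, a Y-linked gene, at 61.1, 18.6, 69.4 and 16.9 CPM. Cells with Y-linked and no Xist UMIs made up 54.1% of tag 1, 19.5% of tag 2, 55.5% of tag 3 and 13.8% of tag 4. Cells with Xist and no Y-linked UMIs made up 4.90%, 63.0%, 6.27% and 66.8%. Where only Y-linked UMIs were seen, Hoxc4 to Hoxc9 summed to 65.2, 5.16, 66.9 and 3.86 CPM, 12.6-fold lower in tag 2 than in tag 1 (5.78 to 34.5) and 17.3-fold lower in tag 4 than in tag 3 (9.07 to 38.1). Where only Xist UMIs were seen, the sums were 38.1, 2.36, 38.3 and 4.10 CPM, 16.2-fold lower (7.69 to 39.2) and 9.36-fold lower (5.95 to 14.7). So Hoxc4 to Hoxc9 were lower in tags 2 and 4 within either kind of cell, with overlapping intervals of the fold. Within tags 1 and 3 the level was higher in the Y-linked kind. The kinds rest on any UMI seen, and in tag 1, 33.1% of the cells had neither transcript and 7.95% had both. Donor sex is not given. Whether the kinds are male and female cells was not tested, so this split does not separate sex from tag. In cells without a tag, Hoxc4 to Hoxc9 were at 41.4 CPM in the Y-linked kind and 5.40 CPM in the Xist kind.

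Hoxa and Hoxb groups 6 to 9 were also lower in both kinds of cell, at ratios of 0.535 (0.424 to 0.667) and 0.556 (0.433 to 0.715) for tag 2 against tag 1 and 0.346 (0.281 to 0.422) and 0.460 (0.367 to 0.581) for tag 4 against tag 3. Single genes were less even. In the Xist kind, Hoxb9 was at a ratio of 0.970 (0.397 to 2.60; 17 against 8 UMIs) between tags 2 and 1, and Hoxa7 at 0.786 (0.497 to 1.30) between tags 4 and 3.

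**Figure D3:**
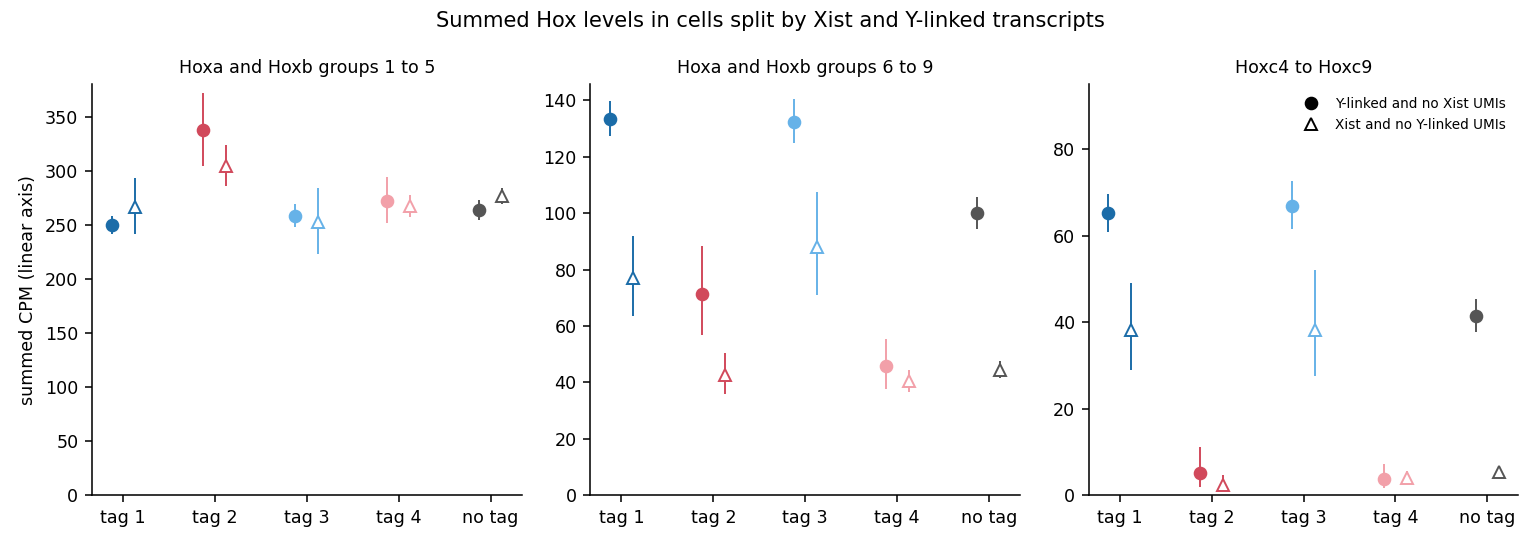
Summed CPM (linear axes) of 3 sets of Hox genes in cells whose sex transcripts were Y-linked alone (filled circles) or Xist alone (open triangles), for tags 1 to 4 and cells without a tag, with exact Poisson 95% intervals. Hoxc4 to Hoxc9 lie between 38.1 and 66.9 CPM in tags 1 and 3 and at or below 5.16 CPM in tags 2 and 4 in both kinds of cell.

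The 6 genes read beside the HoxC cluster showed smaller differences than Hoxc4 to Hoxc9. Atf7, Atp5g2 and Calcoco1 on the side of Hoxc13, and Smug1, Cbx5 and Hnrnpa1 on the side of Hoxc4, were the nearest measured neighbours chosen. Atp5g2 was at 452, 445, 420.1 and 491 CPM in tags 1 to 4 and Cbx5, a heterochromatin protein gene, at 109.7, 129, 131 and 127 CPM. The ratios of the 6 flanking genes ran from 0.876 for Smug1 to 1.19 for Calcoco1 between tags 2 and 1, and from 0.652 for Smug1 to 1.65 for Calcoco1 between tags 4 and 3. None was past 2-fold, where 7.12% of all genes were higher and 9.28% lower between tags 2 and 1. Between tags 4 and 3 these shares were 8.43% and 6.55%, so none among 6 genes is near the share of all genes. The intervals of Smug1 (0.481 to 0.878) and Calcoco1 (1.34 to 2.04) between tags 4 and 3, among others, excluded 1.

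**Figure D4:**
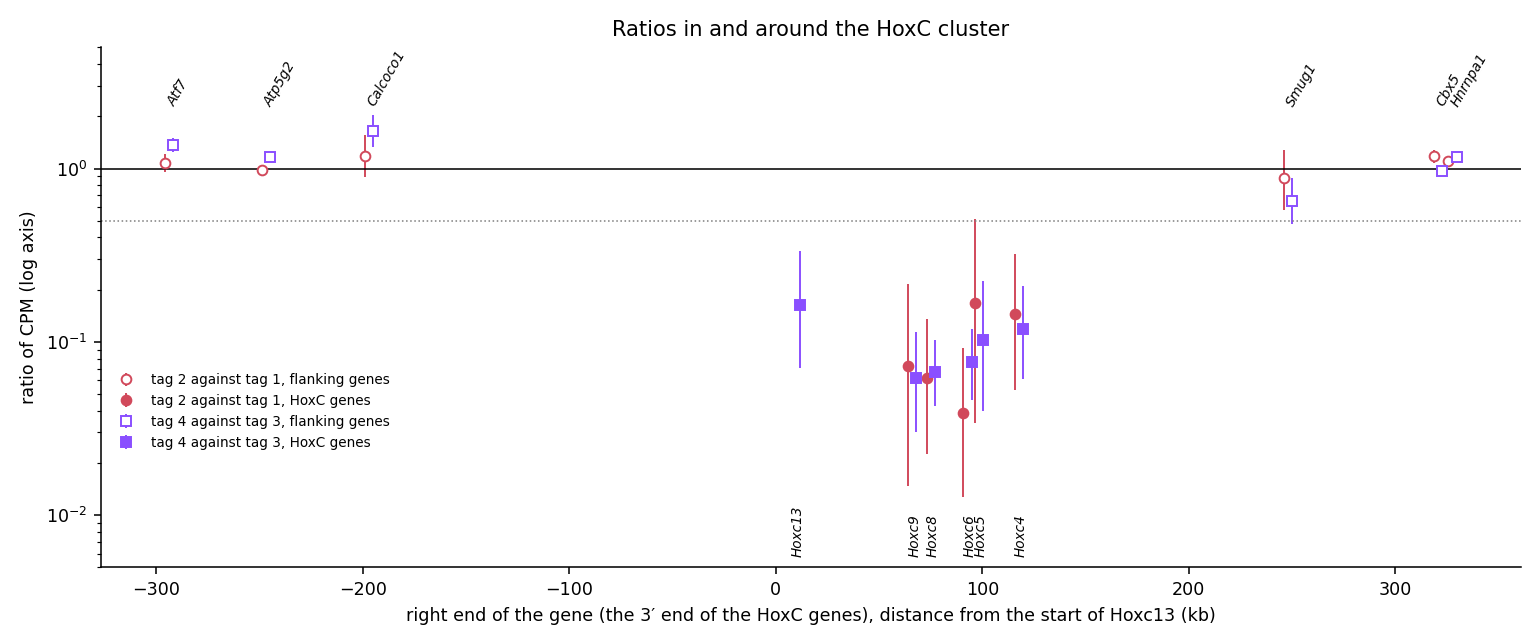
Ratio of CPM (log axis) of HoxC genes (filled) and of flanking genes (open) against the distance of the gene's right end from the start of Hoxc13 in kb, for tag 2 against tag 1 (circles) and tag 4 against tag 3 (squares), with exact binomial 95% intervals. Flanking genes lie between 0.652 and 1.65, and HoxC genes with a point below 0.2.

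Across cells, Hox UMIs were sparse. At 5000 UMIs per cell, a Hox UMI of any kind was found in 83.9% of tag 1 cells, 78.2% of tag 2, 84.6% of tag 3 and 74.1% of tag 4, with a mean of 1.89, 1.504, 1.91 and 1.31 Hox genes per cell and at most 8. Thinning left out 747, 21, 136 and 114 cells, and before it the shares were 87.3%, 90.7%, 91.2% and 85.8%. Hoxa5 was found in 36.9%, 42.0%, 37.5% and 40.7% of the thinned cells and Hoxc6 in 10.3%, 0.420%, 7.92% and 0.424%. Between single cells of a tag, the Pearson correlation of a pair of Hox genes was at most 0.160, with medians from 0.0103 to 0.0290. Hoxc6 and Hoxc8 were found together in 35 of 2397 tag 1 cells, where 19.04 would be found if they were independent (r of 0.101), and in 23 of 1364 tag 3 cells, where 10.69 would be (r of 0.103). Cells of a tag differ in cluster and sex transcripts, and these pairs are given as a description.

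Cells were also clustered with the Hox genes left out of the clustering, which gave 12 clusters, and 13 combinations of tag and cluster held at least 100 cells. In the 7 combinations from tags 1 and 3, Hoxc4 to Hoxc9 summed to 34.3 to 71.4 CPM, with a median of 61.9. In the 6 from tags 2 and 4 they summed to 1.08 to 2.16 CPM, with a median of 1.80. The ranges did not overlap, and did not for Hoxa and Hoxb groups 6 to 9 either (94.6 to 151 against 30.1 to 75.1 CPM). They overlapped for groups 1 to 5 (175 to 299 against 230 to 352 CPM), for Hoxa5 (65.99 to 123 against 95.3 to 173 CPM) and for Hoxb4 (17.4 to 35.1 against 32.7 to 44.4 CPM). How many of all genes have ranges that do not overlap was not computed, so these ranges have no background beside them. Cells of the combinations share a culture and a library, so they are not replicates. The combinations of tags 1 and 3 came from clusters 1, 3, 7, 8, 9 and 10 and those of tags 2 and 4 from clusters 2, 4 and 6, with no cluster in common, so tag and cluster cannot be told apart in these ranges.

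The smaller numbers of cells that shared clusters across tags gave smaller folds for Hoxc4 to Hoxc9. Within clusters 1, 3, 7, 8, 9 and 10 together, the sum was 60.5 CPM in tag 1 (3011 cells), 18.5 in tag 2 (45 cells), 65.0 in tag 3 (1287 cells) and 26.1 in tag 4 (131 cells). Tag 2 was 3.27-fold lower than tag 1 there (1.82 to 6.57) and tag 4 was 2.49-fold lower than tag 3 (1.87 to 3.40). Within clusters 2, 4 and 6 the sum was 11.7 CPM in tag 1 (98 cells, 11 UMIs), 1.92 in tag 2 (425 cells, 9 UMIs), 13.9 in tag 3 (89 cells, 11 UMIs) and 1.45 in tag 4 (1332 cells, 20 UMIs). Tag 2 was 6.09-fold lower than tag 1 there (2.29 to 16.6) and tag 4 was 9.54-fold lower than tag 3 (4.13 to 20.9). The intervals in clusters 2, 4 and 6 include the folds over all cells of the tags. Those in clusters 1, 3, 7, 8, 9 and 10 lie below these folds. So the pooled Hoxc4 to Hoxc9 sum was lower in tags 2 and 4 in either set of clusters. The tags fill the clusters of a set unequally, so these sums do not compare tags within 1 cluster. In each tag Hoxc4 to Hoxc9 were lower in clusters 2, 4 and 6. Of the 1126 cells of cluster 1, in the first set, 91.1% were called doublets, 7.99% carried only tag 4 and 1.95% only tag 2. Cluster 1 held 301 of the 3011 tag 1 cells and 153 of the 1287 tag 3 cells of that set. It held most of the tag 4 cells of the set. Its share of the tag 2 cells of the set was also well above its shares of tags 1 and 3. How much of the tag 2 and tag 4 levels in the first set came from doublets was not tested. For Hoxa and Hoxb groups 6 to 9, the ratio of tag 2 to tag 1 was 0.504 (0.356 to 0.694) in the first set of clusters and 0.924 (0.688 to 1.26) in clusters 2, 4 and 6, and that of tag 4 to tag 3 was 0.632 (0.532 to 0.745) and 0.425 (0.333 to 0.548). How many of the cells found in the clusters of other tags carry a wrong tag was not tested.

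Within a tag, clusters differed in level as well. In tag 4, cluster 6, led by the smooth muscle genes Cnn1, Myl9, Acta2 and Tagln among others, had Hoxa5 at 173 CPM, against 112 in cluster 4 (led by Nxph1, Hgf and Clu) and 95.3 in cluster 2 (led by Hist1h1b and Mki67). Hoxb5 was at 22.4 CPM in cluster 6 of tag 4 against 7.25 in cluster 4 and 7.13 in cluster 2, and at 32.7 against 13.7 and 18.5 CPM in tag 2. Hoxb8 was at 17.3 CPM in cluster 6 of tag 4 and 5.71 in cluster 4, and at 24.1 and 6.15 CPM in tag 2. Cluster 6 was thus the highest for Hoxb5 and Hoxb8 in both tags. In tag 1, cluster 8 had the highest Hoxa7 (53.7 CPM) and cluster 1 the lowest (22.4 CPM); in cluster 1, 91.1% of the cells were called doublets. Cluster 7 of tag 1 had the lowest summed groups 1 to 5, at 175 CPM.

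**Figure D5:**
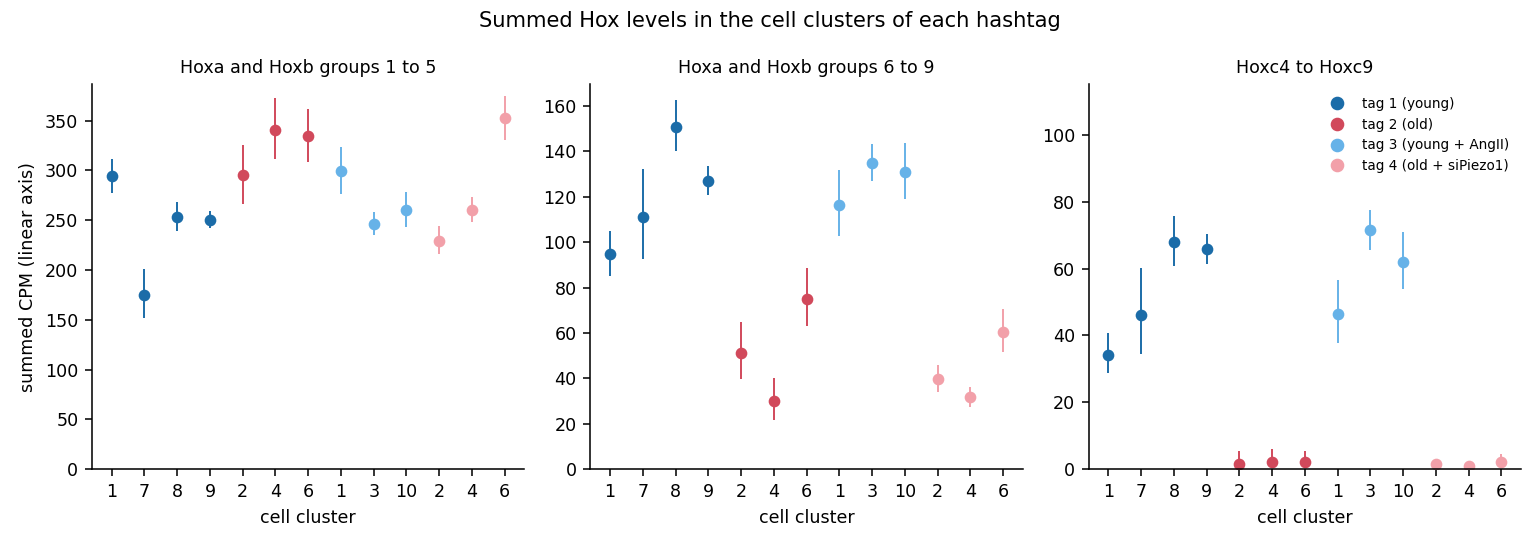
Summed CPM (linear axes) of 3 sets of Hox genes in each cell cluster with at least 100 cells of a tag, coloured by tag, with exact Poisson 95% intervals. Hoxc4 to Hoxc9 lie at or above 34.3 CPM in every cluster of tags 1 and 3 and at or below 2.16 CPM in every cluster of tags 2 and 4.

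Over the same 13 combinations, Hoxc8 and Hoxc9 were the most alike pair of Hox genes, with a Pearson r of 0.978 on log2(CPM + 1), followed by Hoxc4 and Hoxc6 at 0.959. The most opposed pair was Hoxa7 and Hoxb3, at -0.803. The genes whose pattern was most like the summed Hox level were Cdh2 (r of 0.902), Olr1 (0.902), Cyp1b1 (0.898), Col4a1 (0.898) and Timm10b (0.897). These values describe 13 points that share 4 cultures and 1 library.

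Of the 9 Hox partner genes (Pbx, Meis and Pknox), 2 were at least 2-fold lower in tag 2 than in tag 1, Pbx4 at a ratio of 0.448 (0.268 to 0.712) and Pknox2 at 0.242 (0.161 to 0.352), and 0 were higher, beside 9.28% lower and 7.12% higher among all genes. In tag 4 against tag 3, 2 were at least 2-fold higher, among them Meis1 at 2.02 (1.88 to 2.18), and 0 were lower, beside 8.43% and 6.55% of all genes. Meis1 was at 107, 167, 72.5 and 147 CPM in tags 1 to 4. Of 22 Polycomb, Trithorax and demethylase genes, which set the chromatin state of Hox clusters, 1 was past 2-fold between tags 2 and 1 (Cbx7, lower, 6 against 57 UMIs) and 0 between tags 4 and 3. The shares of all genes are those given above for the partner genes. Between tags 3 and 1, 2 of the 22 chromatin genes were at least 2-fold higher and 1 lower, beside 3.68% and 7.59% of all genes. These were Ezh2, the Polycomb methyltransferase, at 2.03 (1.89 to 2.19), Cbx2 at 2.10 (1.31 to 3.42) and Cbx7 at 0.368 (0.185 to 0.681). Of the 9 partner genes, 0 were higher and 2 lower there, Pbx4 at 0.377 (0.266 to 0.523) and Pknox2 at 0.477 (0.396 to 0.572). Between tags 4 and 2, 0 genes of either list were past 2-fold, where 3.37% of all genes were higher and 3.13% lower.

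Retinoic acid is a classical inducer of low-numbered Hox genes. Of 13 measured genes of its pathway, 2 were at least 2-fold higher and 2 lower in tag 2 against tag 1 (all genes, 7.12% and 9.28%), and likewise in tag 4 against tag 3 (all genes, 8.43% and 6.55%). Aldh1a1, which makes retinoic acid, was at 238, 25.6, 88.7 and 22.4 CPM, and Crabp1, which binds it in the cell, at 31.0, 92.5, 17.3 and 93.9 CPM. Aldh1a2 was higher in both comparisons, at 3.20 (2.03 to 4.99) and 2.90 (1.81 to 4.80). Aldh1a3 was higher in tag 3 than in tag 1, at 8.11 (5.85 to 11.5).

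Of 19 measured transcription factors of other regional programmes, 7 were at least 2-fold higher and 3 lower in tag 2 against tag 1, where 7.12% and 9.28% of all genes were, and 7 higher and 2 lower in tag 4 against tag 3, where 8.43% and 6.55% were. Tbx4 and Tbx5, the hindlimb and forelimb factors, were at 3.61, 13.985, 3.21 and 19.9 CPM and at 3.69, 9.68, 3.01 and 10.9 CPM. Barx1, a factor of stomach mesenchyme, was at 6.80, 32.8, 5.29 and 31.2 CPM. Hand2, a factor of heart and limb, was at 9.99, 4.30, 12.6 and 3.41 CPM, and Tbx18 at 20.4, 5.74, 14.1 and 7.51 CPM. Of the non-coding RNAs of the Hox loci, 10 had a row and 6 had at least 50 UMIs. Hotairm1, at the HoxA cluster, was at 27.9, 29.0, 26.7 and 26.3 CPM, and Hotair, of the HoxC cluster, had 0 UMIs.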

How the data were processed

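The deposited values are raw UMI counts per barcode for 32285 genes and 4 hashtags, which the authors made with Cell Ranger 4 from a 10x 3′ library and its hashtag library, with no filter on barcodes. No source used here names their genome build. Barcodes with at least 2218 UMIs and 200 genes were kept as cells. A cell was given a tag when that tag alone exceeded its cutoff (36, 52, 61 and 41 UMIs for tags 1 to 4). Scrublet, run through scanpy 1.11.5 at an expected rate of 0.1, left 10439 cells not called as doublets. Called cells were kept in the main values and left out in an alternative.

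For each tag, UMIs of its cells were added up and expressed as CPM (UMIs per 1000000) with exact Poisson limits. Ratios had exact binomial intervals and shares Clopper-Pearson intervals (scipy 1.17.1), and the ratio was tested on simulated counts. A count of 0 was bounded with 3 UMIs. No test was made between tags. Cells were clustered (leidenalg 0.10.2) with Hox genes left out of the variable genes. Barcodes of 1 to 100 UMIs gave the free RNA profile.

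Named were all Hox genes that were on, those past 2-fold, and the 5 genes most like the summed Hox level. The Hox genes and the lists were chosen with earlier results of these data known, and the Xist alternative and the split by cluster sets after the data were seen. Neighbours of the Hox clusters, promoter motifs and sums over Hoxc4 to Hoxc9 or groups of paralogues were also chosen with results known. Positions came from GENCODE vM21 and promoters from RefSeq (GRCm38.p6), by identifier or symbol; members without a promoter entry are named only. Cells without a tag or with more than 1 tag entered no comparison. The values of some single genes are not reported here, and those genes stay in the counts and sums.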

Additional observations from a re-analysis of the deposited data

How the results depend on the processing

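With 1 culture per tag, the spread between cultures could not be measured, and depth limits the low genes most: 497 cells carry tag 2, and Hoxa6, Hoxa9 and Hoxd8 rested on 1 UMI there. No paired analysis was possible because the samples are 1 gene library and 1 hashtag library of the same pool. The cause of the changes below was not tested, except where fewer genes or cells entered by construction. The number of genes on over all cells was 16, and 11 to 19 under the alternatives. Of 544 ratios of named Hox genes recomputed, 474 stayed within the counting interval of the value reported, 70 lay outside it and 0 reversed. Over the alternatives, the Hoxc6 ratio lay between 0.00601 and 0.0702 for tag 2 against tag 1 and between 0.0331 and 0.139 for tag 4 against tag 3, while Hoxb7 ran from 0.443 to 0.636 and Hoxb9 from 0.308 to 0.970 for tag 2 against tag 1.

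Hox genes lower in tag 2 than in tag 1 by 2-fold numbered 7 in place of 12 in cells with Xist and no Y-linked UMIs, and 1 rather than 0 was higher at a fold of 1.5. Lower in tag 4 than in tag 3 were 9 in place of 14 in the Xist cells and 8 at 500 UMIs, and 2 rather than 0 were higher in the Xist cells and 1 at a fold of 1.5. Higher in tag 3 than in tag 1 were 2 in place of 1 without called doublets, in Y-linked cells and in Xist cells, 3 at a fold of 1.5 and 0 at 500 UMIs; lower were, in place of 0, 1 with doubled cutoffs, 1 with free RNA subtracted, 4 in Xist cells and 2 at a fold of 1.5. Higher in tag 4 than in tag 2 were, in place of 2, 1 when the own tag had to be 3 times the next and in Y-linked cells, and 0 with doubled cutoffs, thinning, no doublets or 500 UMIs. Lower were, in place of 1, 4 when the own tag had to be 3 times the next and 3 with doubled cutoffs, thinning, no doublets, Y-linked cells or a fold of 1.5. Hoxb5 was at 0.395 to 0.498 under the alternatives, none of which held the cell cluster fixed. In tags 4 and 2 it was at 22.4 and 32.7 CPM in cluster 6, 7.25 and 13.7 in cluster 4, and 7.13 and 18.5 in cluster 2. At 500 UMIs, 4.28% of all genes were lower in tag 4 than in tag 3. There, 1.94% were higher in tag 3 than in tag 1 and 0.578% higher in tag 4 than in tag 2. For the other alternatives the shares of all genes are not given, so those counts have no background beside them.

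The summed Hox level was 451.6, 451.2 and 383.9 CPM in tag 1 with free RNA subtracted, in Y-linked cells and in Xist cells, against 437.5. In tag 2 it was 396.1 with doubled cutoffs, 414.0 in Y-linked cells and 350.7 in Xist cells, against 375.4. In tag 3 it was 434.6 with thinning, 462.1 with free RNA subtracted, 463.7 in Y-linked cells and 382.3 in Xist cells, against 447.0, and in tag 4 308.9 without doublets, against 319.1. Thinning moved the share of cells with a Hox UMI from 87.3% to 83.9%, from 90.7% to 78.2%, from 91.2% to 84.6% and from 85.8% to 74.1% in tags 1 to 4. The Xist alternative was added after the data were seen.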
